A study of Mus musculus with 16 samples.

Results

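The constitutive proteasome subunits are the 36 genes with a symbol of the form Psma, Psmb, Psmc or Psmd plus a number, apart from the interferon-inducible Psmb8, Psmb9 and Psmb10. They were taken from 18193 genes measured in mouse ventricular myocardium, each gene by its brightest single-symbol probe set on average over the 16 arrays. The study combined endotoxaemia with deletion of A2AR, the adenosine 2A receptor, which signals through cAMP. There were 4 groups of 4 arrays: A2AR knockout mice given lipopolysaccharide (LPS, the outer-membrane endotoxin of E. coli), wild-type littermates given LPS, knockout mice given saline, and wild-type littermates given saline. LPS was injected once into the peritoneum at 20 mg/kg, the saline groups had an equal volume of vehicle, and tissue was taken at 24 h. All mice were males of 14 weeks on the CD1 background from 1 breeding series, and the knockout line has lost the receptor in every tissue. The labels number 4 samples in each group without saying more about their source, so p-values measure the spread between these samples.

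The proteasome degrades proteins tagged with ubiquitin. Its 20S core is a barrel of stacked alpha and beta rings, in which the alpha ring gates entry and the beta ring holds the active sites. The 19S regulatory particle caps the core: its ATPases unfold the substrate and push it into the barrel, and its non-ATPase subunits bind ubiquitin chains, remove them and scaffold the particle. Psmb5, Psmb6 and Psmb7 carry the active sites of the constitutive core, with chymotrypsin-like, caspase-like and trypsin-like activity, and cytokines such as interferon gamma induce Psmb8, Psmb9 and Psmb10 to take their places in newly made immunoproteasomes. In heart muscle the proteasome turns over sarcomeric and damaged proteins. The members comprised 7 alpha ring genes, 7 beta ring genes, 6 ATPases and 11 non-ATPases. A further 3 bear a Psmd name but encode chaperones that assemble the 19S particle (Psmd5, Psmd9 and Psmd10), and 2 encode tissue-restricted core subunits, Psma8 of the male germ line and Psmb11 of the thymic cortex.

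The label was checked against the levels. Of the 36 members, 34 had a mean over the arrays above the median over all probe sets (4.64 on the log2 scale). This check is coarse, since the choice of the brightest probe set per gene favours values above that median. The share of all genes above it was not counted. The exceptions were Psma8 and Psmb11, at 3.12 to 3.75 over all arrays, so the name constitutive does not describe those 2 in this tissue. The tissue label was borne out by 8 cardiomyocyte markers (Myh6, Tnnt2, Tnni3, Actc1, Myl2, Myl3, Ryr2 and Pln), whose summed log2 level divided by their number was 13.42 to 13.98 in every array. Array medians lay between 4.62 and 4.67. Precision is limited by the number of arrays, which have no depth of reading. Values here are log2 signals, and levels of different probe sets cannot be compared with each other. Apart from the coarse check against the median, genes are therefore compared only by their changes.

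Promoter sequence was available in the RefSeq table (build GRCm38.p6) for 29 of the 36 members, as 31 windows of 300 bases that run from 250 bases before to 50 bases after an annotated start. There was no entry for Psma8, Psmb1, Psmb2, Psmb7, Psmc3, Psmd3 and Psmd7. The 60 bases before the start are shown for the catalytic Psmb5 (chr14:54617996-54618055, minus strand) and Psmb6 (chr11:70525297-70525356, plus strand), whose transcripts did not pass the test for LPS. Beside them stand the members with the largest rises in the core, Psma5 (chr3:108256866-108256925, plus strand), and in the cap, Psmd11 (chr11:80428555-80428614, plus strand). Capitals mark a match to TGACNNNGC, the core of the antioxidant response element that the transcription factors Nfe2l1 and Nfe2l2 bind.
Psmb5: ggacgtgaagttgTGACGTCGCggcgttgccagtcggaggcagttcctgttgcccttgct
Psmb6: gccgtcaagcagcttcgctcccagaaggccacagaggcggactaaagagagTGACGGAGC
Psma5: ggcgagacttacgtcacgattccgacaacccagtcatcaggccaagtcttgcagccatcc
Psmd11: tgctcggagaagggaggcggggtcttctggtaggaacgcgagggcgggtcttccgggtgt
The match begins 47 bases before the start in Psmb5 and 9 bases before it in Psmb6, and the 300-base windows of Psma5 and Psmd11 hold none. Matches not shown lie in the windows of Psmc6, Psmd9 and Psmd12, which rose by the mean LPS effect over both genotypes. Among members with a window, 3 of the 24 that rose by that effect and 2 of the 5 not called held a match.

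After LPS the transcripts of most proteasome subunits stood higher in hearts of both genotypes. In knockout hearts 24 of the 36 members rose and 0 fell, where 11.4% of all genes tested were called higher and 14.7% lower. In wild-type hearts 24 rose and 0 fell, where 9.28% of all genes were called higher and 11.6% lower. A gene was called at a limma adjusted p under 0.05, with Benjamini-Hochberg adjustment over all 18193 genes. The median member had a log2 change of 0.43 in each genotype, a fold of 1.35, against all-gene medians of -0.02 and 0.00. The rises were small for single genes: by the mean LPS effect over both genotypes, 7 members rose by at least 1.5-fold and 1, Psma5, by at least 2-fold. The share of all genes that reached these folds was not counted, so the 2 numbers describe the size of the rises only. In bulk tissue, a change in the number of cells of a type and a change in RNA per cell cannot be told apart.

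The same members made up most of both counts. Of the 36, 22 rose in both genotypes, 2 passed in knockout hearts but not in wild-type hearts (Psma4 and Psmd3), 2 passed in wild-type hearts but not in knockout hearts (Psmd1 and Psmd10), and 10 passed in neither. By the mean LPS effect, which uses all arrays, 27 rose and 0 fell, where 15.4% of all genes were called higher and 19.5% lower, and 34 of the 36 changes were positive. A mean change above 0.25 was found for 27 members, or 75% of them, and for 15.2% of all genes. All LPS arrays lay above all saline arrays for 24 members in knockout hearts, 23 in wild-type hearts and 21 in both, against 12.3%, 10.9% and 7.10% of all genes. Without wild-type saline arrays 1 and 4, which carried skeletal muscle markers, the mean-effect count was 26 and the wild-type count 18. In wild-type hearts Psma6, Psmb3, Psmc5, Psmc6, Psmd1 and Psmd6 then no longer passed. The share of all genes called without these arrays was not counted.

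**Figure D1:**
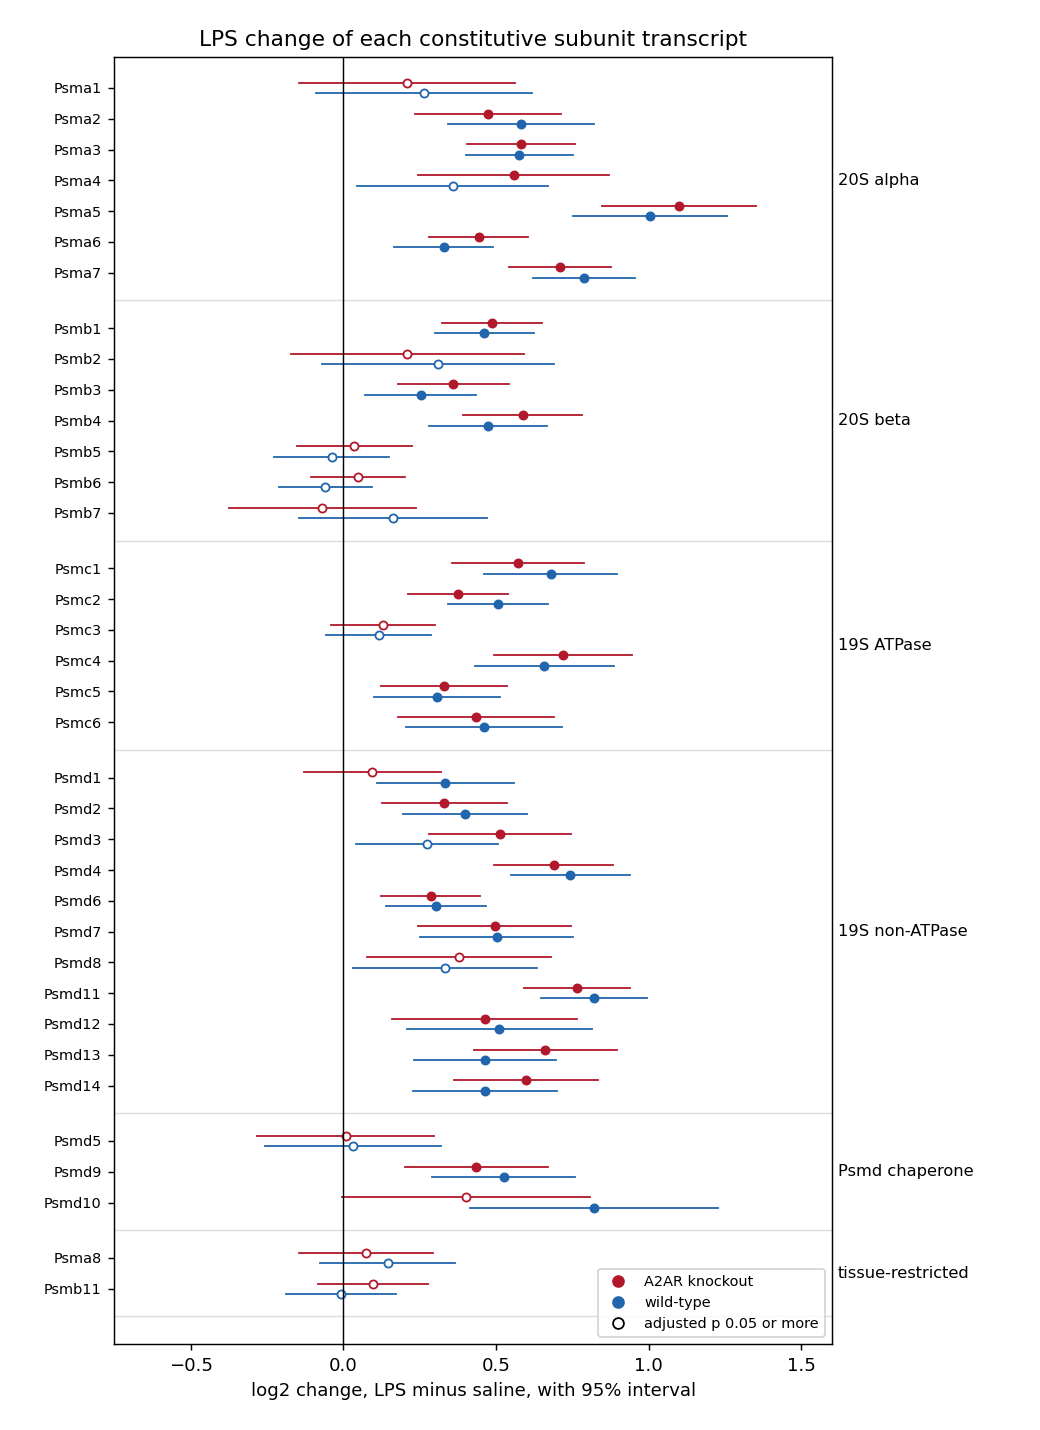
Log2 change of each of the 36 members, LPS minus saline (horizontal axis), with its 95% interval from limma, in A2AR knockout hearts (red, upper of each pair) and wild-type hearts (blue, lower of each pair), grouped by role. Filled points passed at adjusted p under 0.05: most lie near 0.5, Psma5 lies near 1, and the catalytic Psmb5, Psmb6 and Psmb7 have open points near the zero line.

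**Figure D2:**
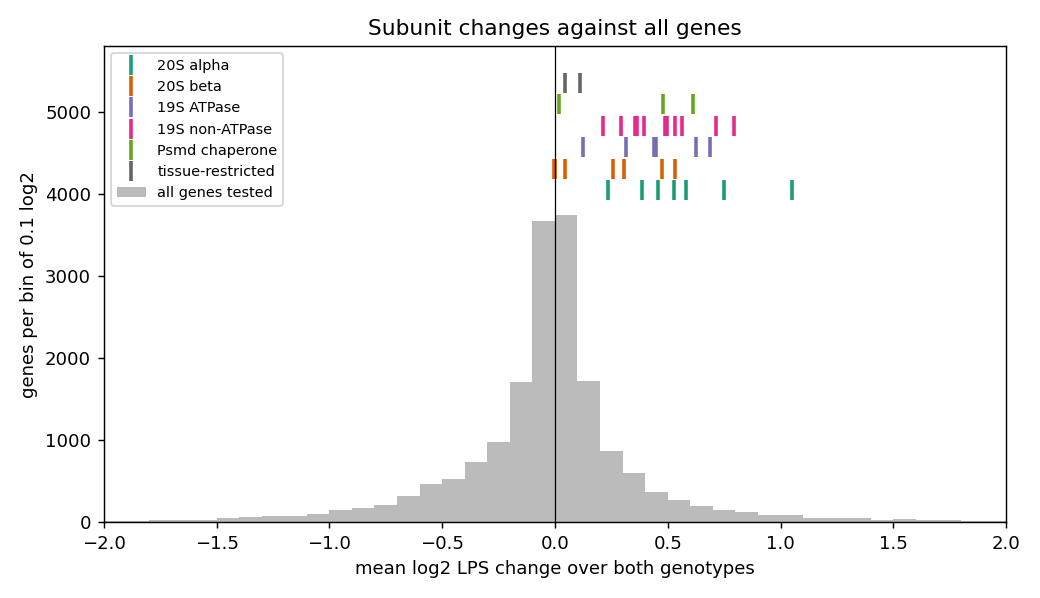
Histogram of the mean log2 LPS change over both genotypes for all genes tested (grey, 0.1 log2 per bin), with 1 tick for each member in rows by role. The 264 genes with changes beyond 2 in size are not drawn. The histogram peaks at 0, while 27 of the 36 ticks lie above 0.25.

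Markers of other cells moved with LPS beside these results. Of 5 measured neutrophil markers, S100a8, S100a9 and Ngp rose in both genotypes, while the receptors Csf3r and Cxcr2 did not pass. The mean log2 level of the list was 6.91 to 7.32 in knockout LPS arrays, against 4.18 to 4.30 in knockout saline arrays, and 6.28 to 7.01 in wild-type LPS arrays, against 3.93 to 4.20 in wild-type saline arrays, where, as in knockout saline arrays, all 5 had means under the median over probe sets. Of 6 macrophage markers Itgam rose, and Csf1r, Lyz2 and Mrc1 fell by the mean effect. Of 8 cardiomyocyte markers, 7 fell by the mean effect and 4 in each genotype alone, among them Actc1 (-0.81 in knockout and -0.66 in wild-type hearts). By the mean effect 3 of 5 endothelial, 2 of 5 fibroblast, 2 of 2 measured B cell and 3 of 3 measured adipocyte markers fell, and 0 of 4 T and NK cell markers passed. Skeletal muscle markers averaged 3.80 to 7.64 in wild-type saline arrays and 3.64 to 3.84 in all others. The part of these markers in the subunit changes was not tested.

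The alpha ring had the largest median rise among the structural classes, 0.56 in knockout and 0.58 in wild-type hearts, and its differences from the other classes were not tested. Of its 7 genes, 6 rose in knockout hearts and 5 in wild-type hearts. Psma5 (the alpha5 subunit) had the largest rise of all members. Its log2 values were 11.67, 11.32, 11.46 and 11.67 in knockout LPS arrays, against 10.46, 10.42, 10.42 and 10.44 in knockout saline arrays. In wild-type hearts they were 11.49, 11.60, 11.55 and 10.95 in wild-type LPS arrays, against 10.36, 10.39, 10.40 and 10.43 in wild-type saline arrays. No LPS array overlapped a saline array in either genotype, although wild-type LPS array 4 stood well under the other wild-type LPS arrays. Psma5 rose by 1.10 ± 0.12 in knockout and 1.00 ± 0.12 in wild-type hearts (limma adjusted p = 4.38e-06 and 1.34e-05).

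Psma7 (the alpha4 subunit), second within the alpha ring, had 11.15, 10.98, 11.08 and 11.27 in knockout LPS arrays, against 10.36, 10.38, 10.53 and 10.37 in knockout saline arrays. In wild-type hearts its values were 11.15, 11.26, 11.24 and 11.08 in wild-type LPS arrays, against 10.35, 10.33, 10.42 and 10.46 in wild-type saline arrays. The LPS and saline ranges were again apart in both genotypes. Psma7 rose by 0.71 ± 0.08 in knockout and 0.79 ± 0.08 in wild-type hearts (limma adjusted p = 5.56e-06 and 2.12e-06). The other alpha ring genes that rose in both genotypes were Psma3 (0.58 in knockout and 0.58 in wild-type hearts), Psma2 (0.47 and 0.58) and Psma6 (0.44 and 0.33). Psma4 rose by 0.56 ± 0.15 in knockout hearts (limma adjusted p = 0.00975) and had a change of 0.36 ± 0.15 in wild-type hearts (0.104), where LPS array 4 stood at 10.09 and the other LPS arrays at 10.79 to 10.90. Without that array its wild-type change was 0.55 (limma adjusted p = 0.000361). Psma1 did not pass in either, with 0.21 ± 0.17 in knockout and 0.26 ± 0.17 in wild-type hearts. With all its probe sets averaged, its knockout change was 0.28 and passed (limma adjusted p = 0.0419). With array weights, its wild-type change was 0.34 and passed (limma adjusted p = 0.0446).

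Of the 7 beta ring genes, Psmb1, Psmb3 and Psmb4, which have no active site, rose in both genotypes, and Psmb2 and the 3 catalytic subunits passed in neither. The class median was 0.21 in knockout and 0.25 in wild-type hearts. Psmb4 (the beta7 subunit) had 11.65, 11.81, 11.57 and 11.60 in knockout LPS arrays, against 11.22, 10.96, 10.98 and 11.13 in knockout saline arrays. In wild-type hearts Psmb4 had 11.59, 11.72, 11.54 and 11.41 in wild-type LPS arrays, against 10.93, 11.03, 11.21 and 11.20 in wild-type saline arrays. Every LPS array lay above every saline array of its genotype. Psmb4 rose by 0.59 ± 0.09 in knockout and 0.47 ± 0.09 in wild-type hearts (limma adjusted p = 0.000158 and 0.00126).

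Psmb1 (the beta6 subunit) had 11.38, 11.23, 11.40 and 11.56 in knockout LPS arrays, against 10.91, 10.93, 10.87 and 10.92 in knockout saline arrays. In wild-type hearts Psmb1 had 11.31, 11.56, 11.47 and 11.49 in wild-type LPS arrays, against 11.03, 11.02, 10.94 and 10.98 in wild-type saline arrays. Here too the groups were apart, and the saline arrays were close together. Psmb1 rose by 0.49 ± 0.08 in knockout and 0.46 ± 0.08 in wild-type hearts (limma adjusted p = 0.000181 and 0.000355). Psmb3 rose by 0.36 ± 0.09 in knockout hearts. Its rise in wild-type hearts was 0.25 ± 0.09 at an adjusted p of 0.0452 from limma, close to the threshold. That call was lost without any single wild-type saline array, without wild-type LPS array 1, 3 or 4, and without knockout LPS array 1 or knockout saline array 2 or 4, with changes of 0.23 to 0.27 and adjusted p up to 0.123. Psmb2, also without an active site, did not pass, with 0.21 ± 0.18 in knockout and 0.31 ± 0.18 in wild-type hearts.

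The catalytic subunits had the smallest changes of the beta ring. Psmb5 had 10.36, 10.39, 10.40 and 10.48 in knockout LPS arrays, against 10.36, 10.34, 10.45 and 10.34 in knockout saline arrays. In wild-type hearts Psmb5 had 10.44, 10.19, 10.40 and 10.63 in wild-type LPS arrays, against 10.55, 10.44, 10.34 and 10.48 in wild-type saline arrays. The LPS and saline arrays overlapped in both genotypes. Its change was 0.04 ± 0.09 in knockout hearts, with a 95% interval of -0.15 to 0.22, and -0.04 ± 0.09 in wild-type hearts, with an interval of -0.23 to 0.15 (limma adjusted p = 0.821 and 0.83). Over both genotypes the interval of the mean change was -0.13 to 0.13, which does not reach the median member's rise of 0.44.

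Psmb6 had 10.53, 10.51, 10.52 and 10.65 in knockout LPS arrays, against 10.52, 10.51, 10.55 and 10.45 in knockout saline arrays. In wild-type hearts Psmb6 had 10.48, 10.37, 10.50 and 10.62 in wild-type LPS arrays, against 10.59, 10.55, 10.51 and 10.55 in wild-type saline arrays. These groups also overlapped. Its change was 0.05 ± 0.07 in knockout hearts (-0.10 to 0.20) and -0.06 ± 0.07 in wild-type hearts (-0.21 to 0.09), with adjusted p = 0.697 and 0.651 from limma. The interval of the mean change was -0.11 to 0.10.

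Psmb7 had 11.44, 10.82, 11.51 and 11.64 in knockout LPS arrays, against 11.19, 11.59, 11.51 and 11.38 in knockout saline arrays. In wild-type hearts Psmb7 had 11.55, 11.52, 11.65 and 11.59 in wild-type LPS arrays, against 11.65, 11.45, 11.22 and 11.34 in wild-type saline arrays. Knockout LPS array 2 was the lowest of its group, and the groups overlapped in both genotypes. The change of Psmb7 was -0.07 ± 0.14 in knockout hearts (-0.38 to 0.24) and 0.16 ± 0.14 in wild-type hearts (-0.14 to 0.47), with adjusted p = 0.789 and 0.51 from limma. Without knockout LPS array 2 the knockout change was 0.11. The interval of the mean change, -0.17 to 0.26, was wider than that of Psmb5 or Psmb6, and in wild-type hearts alone the interval includes the median member's rise.

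Set against the mean of the other 28 subunits of the 20S and 19S particles within each array, all 3 catalytic transcripts were lower in LPS arrays than in saline arrays. The shift of that difference for Psmb5 was -0.448 (knockout) and -0.513 (wild-type) on the log2 scale, LPS minus saline. For Psmb6 it was -0.436 and -0.533, and for Psmb7 -0.552 and -0.312. The LPS and saline arrays did not overlap in any of these 6 comparisons. The mean of the other 28 itself rose, to 0.462 in knockout LPS and 0.474 in wild-type LPS arrays relative to wild-type saline. A transcript without change would therefore shift down by about as much. Shifts of this kind are thus not particular to the catalytic genes, and their share over all genes was not counted. They are given as descriptions without a test because the catalytic genes were set apart with earlier results known. Of all 14 core genes, 9 rose in knockout hearts and 8 in wild-type hearts, with medians of 0.46 and 0.34. Of the 17 cap genes, 14 rose in each genotype, with medians of 0.46 and 0.46. Without the 3 catalytic genes, the core had 9 and 8 of 11 genes that rose, with medians of 0.49 and 0.46. Of all genes tested, 11.4% were called higher in knockout hearts and 9.28% in wild-type hearts. The core and the cap were not tested against each other.

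The inducible counterparts of the catalytic subunits, which are not members, changed far more. Psmb8 had 10.77, 10.67, 10.82 and 11.09 in knockout LPS arrays, against 7.71, 7.31, 7.28 and 7.18 in knockout saline arrays. In wild-type hearts Psmb8 had 10.75, 11.44, 11.12 and 10.60 in wild-type LPS arrays, against 7.23, 7.38, 7.62 and 7.49 in wild-type saline arrays. The LPS arrays lay more than 2 log2 units above the saline arrays in both genotypes. Psmb8, which replaces Psmb5, rose by 3.47 ± 0.17 in knockout and 3.55 ± 0.17 in wild-type hearts (limma adjusted p = 3.69e-10 and 2.93e-10). Psmb9, which replaces Psmb6, rose by 3.23 ± 0.22 in knockout and 3.54 ± 0.22 in wild-type hearts. Psmb10, which replaces Psmb7, rose by 2.86 ± 0.10 in knockout and 2.97 ± 0.10 in wild-type hearts. Within each array, the signal of the inducible gene relative to its constitutive counterpart was 10.8-fold higher after LPS in knockout and 12.0-fold higher in wild-type hearts for Psmb8 over Psmb5. For Psmb9 over Psmb6 the values were 9.06-fold and 12.1-fold, and for Psmb10 over Psmb7 they were 7.60-fold and 7.01-fold. The LPS and saline arrays were apart in all 6, which is given as a description without a test, as above. These are ratios of changes, and the relative amounts of the paired transcripts cannot be read from them.

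**Figure D3:**
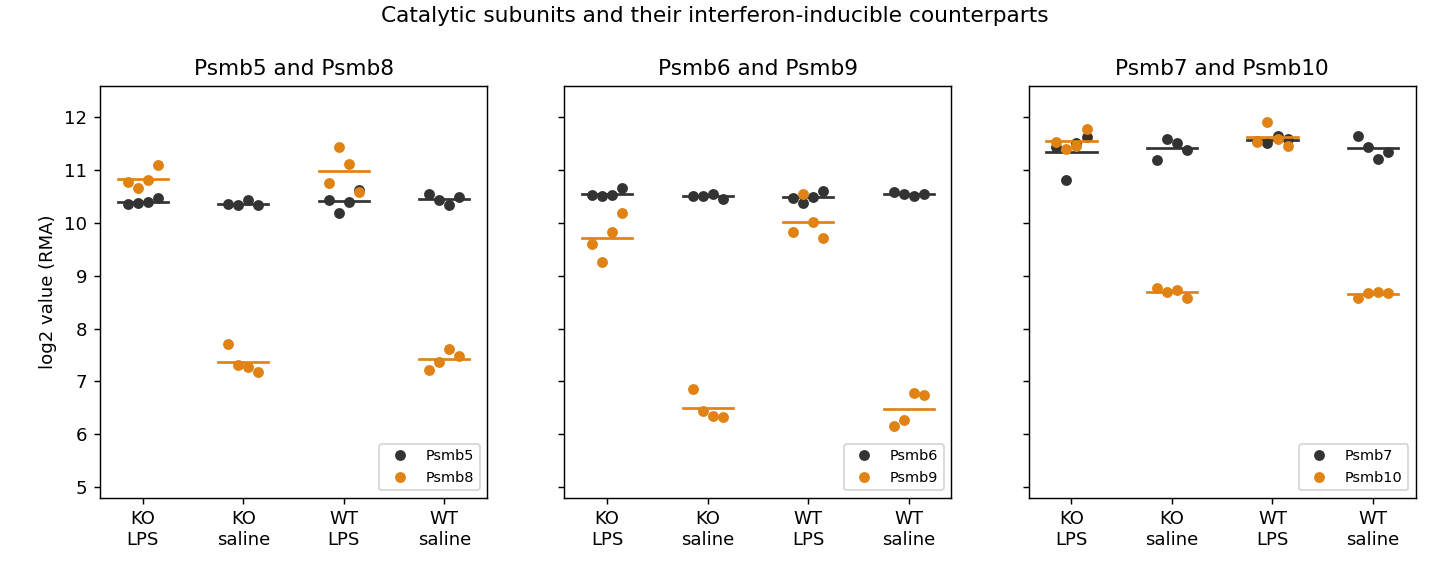
Log2 values in every array of the constitutive catalytic genes (black) and their inducible counterparts (orange), 1 pair per panel, with the group mean as a line. In each panel the black points of LPS and saline groups overlap, while the orange points of the LPS groups lie above those of the saline groups of the same genotype. The vertical distance between a black and an orange point is between probe sets and has no meaning.

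Of the 6 ATPases of the 19S base, 5 rose in both genotypes, with class medians of 0.40 in knockout and 0.48 in wild-type hearts. Psmc4, which encodes the ATPase that the chaperone Psmd10 binds, had the largest mean change of the class, and Psmc1 the larger one in wild-type hearts. Its values were 10.78, 11.06, 10.58 and 10.65 in knockout LPS arrays, against 10.13, 10.00, 9.93 and 10.15 in knockout saline arrays. In wild-type hearts they were 10.54, 10.75, 10.80 and 10.73 in wild-type LPS arrays, against 9.89, 10.02, 10.19 and 10.10 in wild-type saline arrays. No LPS array reached down to a saline array. Psmc4 rose by 0.72 ± 0.11 in knockout and 0.66 ± 0.11 in wild-type hearts (limma adjusted p = 0.000103 and 0.000289).

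Psmc1, an ATPase whose C-terminal tail helps to open the gate of the alpha ring, had 10.23, 9.93, 10.31 and 10.38 in knockout LPS arrays, against 9.43, 9.81, 9.66 and 9.67 in knockout saline arrays. In wild-type hearts Psmc1 had 10.38, 10.31, 10.30 and 10.38 in wild-type LPS arrays, against 9.76, 9.64, 9.66 and 9.60 in wild-type saline arrays. The groups did not overlap. Psmc1 rose by 0.57 ± 0.10 in knockout and 0.68 ± 0.10 in wild-type hearts (limma adjusted p = 0.000534 and 0.000142). Psmc2 rose by 0.38 and 0.51 and Psmc6 by 0.43 and 0.46 in knockout and wild-type hearts. Psmc5 rose by 0.33 ± 0.10 in knockout and 0.31 ± 0.10 in wild-type hearts. Its knockout call was lost without knockout saline array 1 or 2 (adjusted p up to 0.0533 from limma) and its wild-type call without wild-type LPS array 1 or 4 or wild-type saline array 1, 2 or 4 (adjusted p up to 0.105, with a change of 0.20 without LPS array 4). With all probe sets of a gene averaged, Psmc6 did not pass, with 0.28 in knockout and 0.34 in wild-type hearts, and Psmc1 still passed, with 0.37 in each. Psmc3 did not pass, with 0.13 ± 0.08 in knockout and 0.12 ± 0.08 in wild-type hearts, although its LPS and saline arrays were apart in knockout hearts.

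All 11 non-ATPase subunits of the cap rose by the mean LPS effect, and 9 of 11 passed in each genotype alone. The class medians were 0.50 in knockout and 0.46 in wild-type hearts. Psmd11, a lid subunit that clamps the cap to the core, had the largest rise. Its values were 11.85, 11.88, 11.64 and 11.60 in knockout LPS arrays, against 11.02, 10.98, 11.01 and 10.90 in knockout saline arrays. In wild-type hearts they were 11.66, 11.81, 11.96 and 11.75 in wild-type LPS arrays, against 11.02, 10.92, 11.03 and 10.94 in wild-type saline arrays. The lowest LPS array of each genotype stood more than 0.5 above its highest saline array. Psmd11 rose by 0.76 ± 0.08 in knockout and 0.82 ± 0.08 in wild-type hearts (limma adjusted p = 3.69e-06 and 2.02e-06). With all its probe sets averaged, the rises were 0.47 and 0.50 and still passed.

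Psmd4, a ubiquitin receptor of the cap, had 10.95, 10.91, 10.93 and 11.07 in knockout LPS arrays, against 10.30, 10.22, 10.31 and 10.27 in knockout saline arrays. In wild-type hearts Psmd4 had 10.90, 10.91, 11.05 and 11.34 in wild-type LPS arrays, against 10.30, 10.20, 10.40 and 10.32 in wild-type saline arrays. These groups were apart in both genotypes. Psmd4 rose by 0.69 ± 0.09 in knockout and 0.74 ± 0.09 in wild-type hearts (limma adjusted p = 3.93e-05 and 2.07e-05). Psmd14, the deubiquitinase that removes ubiquitin chains from substrates, rose by 0.60 ± 0.11 in knockout and 0.46 ± 0.11 in wild-type hearts. Psmd2, the large base subunit that docks ubiquitin-binding shuttle proteins, rose by 0.33 ± 0.10 in knockout and 0.40 ± 0.10 in wild-type hearts, and without knockout saline array 4 its knockout change was 0.30 (limma adjusted p = 0.0539). The lid subunits Psmd6 (0.29 in knockout and 0.30 in wild-type hearts) and Psmd7 (0.50 and 0.50) rose in both genotypes. With all probe sets of a gene averaged, Psmd2, Psmd6 and Psmd7 had knockout changes of 0.17, 0.23 and 0.21, which did not pass, and still passed in wild-type hearts. Psmd12, also of the lid, rose by 0.46 ± 0.14 in knockout and 0.51 ± 0.14 in wild-type hearts. Its knockout call was lost without knockout LPS array 1, 3 or 4 or knockout saline array 1 (changes of 0.39 to 0.44, limma adjusted p up to 0.0782), and its wild-type call without wild-type saline array 3 (0.45, adjusted p = 0.0577). Psmd8 did not pass in either genotype alone, with 0.38 ± 0.14 in knockout and 0.33 ± 0.14 in wild-type hearts, and did by the mean effect (0.36 ± 0.10, limma adjusted p = 0.0102). Its knockout change passed without knockout LPS array 2 (0.47, adjusted p = 0.023), knockout saline array 2 (0.45, 0.0447) or wild-type saline array 3 (0.38, 0.0471).

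Psmd13, a lid subunit, was measured by 3 probe sets above the median over probe sets, of which 1 disagrees. By the brightest it rose by 0.66 ± 0.11 in knockout and 0.46 ± 0.11 in wild-type hearts. The other probe sets were tested in a separate limma fit, with p-values adjusted over all 34945 single-symbol probe sets. There a second had rises of 0.67 in knockout and 0.58 in wild-type hearts (limma adjusted p = 0.000889 and 0.00339). The dimmest of the 3 had a change of -0.58 in knockout hearts (limma adjusted p = 0.118) and fell in wild-type hearts (-1.0, limma adjusted p = 0.0105). With all 4 of its probe sets averaged, the change of Psmd13 was 0.26 (knockout) and 0.02 (wild-type) and was not called. Over all members, 38 further single-symbol probe sets existed for 19 genes. Of the 25 above that median, 23 had a positive mean change. In the fit over all probe sets, 14 of the 25 were called higher and 1, that of Psmd13, lower. Of the 13 at or under the median, 13 had a positive mean change, 5 were called higher and 0 lower. The share of all 34945 probe sets called in that fit was not counted, so these numbers describe the probe sets of members only. Psmb5, Psmb6 and Psmb7 had a single probe set each.

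**Figure D4:**
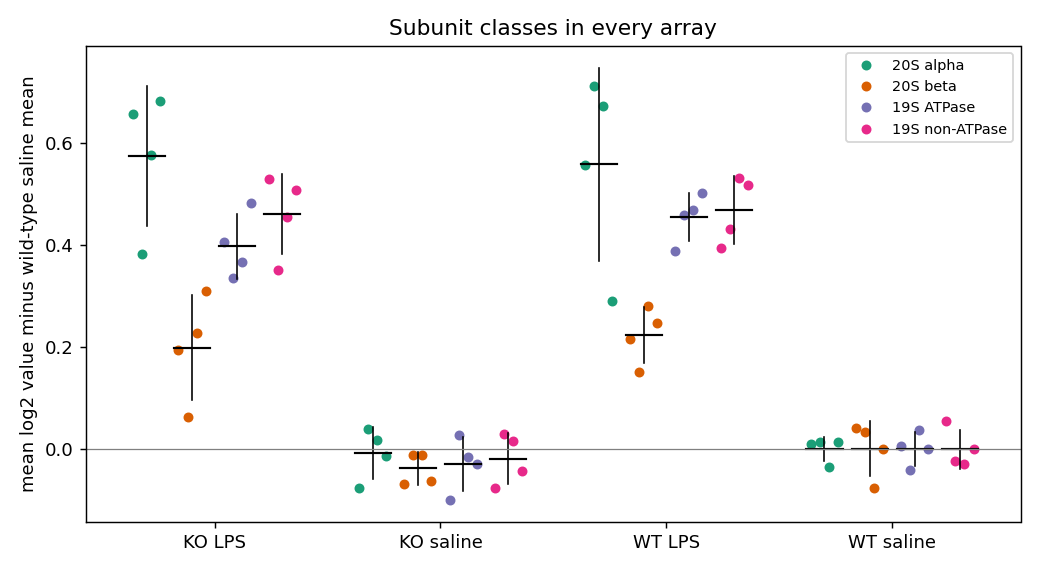
Mean log2 value of each structural class in every array, relative to the class mean of the wild-type saline arrays (points), with the mean and SD over the 4 arrays of a group (lines). The LPS arrays of all 4 classes lie above every saline array, the beta ring lowest at 0.062 to 0.31 in knockout LPS and 0.15 to 0.28 in wild-type LPS arrays, and the saline arrays lie between -0.1 and 0.054.

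The class means were also read array by array. Relative to wild-type saline, the alpha ring stood at 0.381 to 0.682 in knockout LPS arrays and at 0.29 to 0.711 in wild-type LPS arrays. The ATPases stood at 0.335 to 0.481 and 0.388 to 0.501, and the non-ATPases at 0.351 to 0.528 and 0.393 to 0.531. The beta ring, which holds the catalytic genes, lay lower in both genotypes.

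The Psmd-named assembly chaperones varied. Psmd10 (gankyrin), which holds Psmc4 during assembly of the base, had 7.22, 6.42, 7.47 and 7.48 in knockout LPS arrays, against 6.49, 6.99, 6.83 and 6.69 in knockout saline arrays. In wild-type hearts Psmd10 had 7.50, 7.54, 7.44 and 7.32 in wild-type LPS arrays, against 6.89, 6.56, 6.42 and 6.65 in wild-type saline arrays. The groups were apart in wild-type hearts and overlapped in knockout hearts through LPS array 2. Psmd10 rose by 0.82 ± 0.19 in wild-type hearts (limma adjusted p = 0.00511) and had a change of 0.40 ± 0.19 in knockout hearts (0.145). Without knockout LPS array 2 the knockout change was 0.64 (adjusted p = 0.00231).

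Psmd9, which binds a partner ATPase during base assembly, had 6.64, 6.51, 6.53 and 6.53 in knockout LPS arrays, against 5.97, 6.20, 6.21 and 6.08 in knockout saline arrays. In wild-type hearts Psmd9 had 6.52, 6.68, 6.68 and 6.43 in wild-type LPS arrays, against 6.22, 6.04, 5.77 and 6.18 in wild-type saline arrays. The groups were apart in both genotypes. Psmd9 rose by 0.43 ± 0.11 in knockout and 0.52 ± 0.11 in wild-type hearts (limma adjusted p = 0.00759 and 0.00241), and with all its probe sets averaged the knockout change was 0.09 and not called. Psmd5, which holds Psmc2 during assembly, did not pass, with 0.01 ± 0.14 in knockout and 0.03 ± 0.14 in wild-type hearts. The tissue-restricted Psma8 and Psmb11 did not pass, and their levels lay under the median over probe sets in every array.

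No member differed detectably between the genotypes. Between knockout and wild-type hearts after LPS, 0 members were called by limma, where 0.00550% of all genes were, and 1 had an unadjusted p under 0.05: Psmc2, at -0.18 on the log2 scale. The unadjusted p of Psmc2 in the limma fit was 0.0346. After saline, 0 members were called, against 0.00550% of all genes, and 0 had an unadjusted p under 0.05. The interaction, which tests whether the LPS change differed between genotypes, called 0 members and 0% of all genes, and again 0 members had an unadjusted p under 0.05. Of all 18193 genes, 1375 had an unadjusted limma p under 0.05 after LPS, 634 after saline and 813 for the interaction. Low counts of members at that limit are therefore not read as a trait of the members. No level is given here for the targeted gene, so the genotype of each array rests on its label.

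The 3 members with the smallest interaction p were Psmd1, Psmd10 and Psmd3. Psmd1, the large scaffold of the base, had 10.33, 10.16, 10.30 and 10.41 in knockout LPS arrays, against 10.21, 10.27, 10.21 and 10.12 in knockout saline arrays. In wild-type hearts Psmd1 had 10.36, 10.25, 10.39 and 10.77 in wild-type LPS arrays, against 10.25, 10.16, 9.99 and 10.02 in wild-type saline arrays. The groups overlapped in both genotypes. Its change was 0.09 ± 0.11 in knockout hearts (limma adjusted p = 0.58) and 0.33 ± 0.11 in wild-type hearts (limma adjusted p = 0.033), and the difference was -0.24 ± 0.15 (adjusted p = 0.959). The wild-type call was lost without wild-type LPS array 3 or 4 or wild-type saline array 2, 3 or 4, with changes of 0.22 to 0.35 and adjusted p up to 0.0968.

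Psmd3, a lid scaffold, had 9.48, 9.65, 9.24 and 9.43 in knockout LPS arrays, against 9.02, 8.78, 9.04 and 8.91 in knockout saline arrays. In wild-type hearts Psmd3 had 9.23, 9.11, 9.41 and 9.53 in wild-type LPS arrays, against 9.05, 9.01, 9.13 and 8.98 in wild-type saline arrays. The groups were apart in knockout hearts and overlapped in wild-type hearts. Psmd3 rose by 0.51 ± 0.11 in knockout hearts (limma adjusted p = 0.00232) and had a change of 0.27 ± 0.11 in wild-type hearts (0.0937), which was 0.35 and passed (0.0456) without wild-type LPS array 2. The difference was 0.24 ± 0.16 for Psmd3 and -0.42 ± 0.27 for Psmd10 (adjusted p = 0.959 for each). The comparison of LPS changes between genotypes shares no arrays. Over the 36 members the knockout and wild-type changes correlated with a Pearson r of 0.866 and a Spearman rho of 0.823, given as a description across genes, which are not independent replicates. The rise was larger in knockout hearts for 17 of the 36, and the median size of the difference was 0.0838. The median within-group SD was 0.138 over members and 0.165 over all genes.

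The partners of the proteasome moved in part, by lists drawn up with earlier results known. Psme1, a subunit of the interferon-inducible activator ring, rose by 0.67 ± 0.10 in knockout and 0.80 ± 0.10 in wild-type hearts. Of the 4 measured activators and inhibitors, Psmf1, which binds the 20S core, rose by 0.57 ± 0.14 in wild-type hearts and had a change of 0.38 ± 0.14 in knockout hearts (limma adjusted p = 0.0622), Psme3 did not pass, and Psme4, a nuclear activator, fell by the mean effect (-0.28 ± 0.09) but in neither genotype alone. Of the 5 chaperones that assemble the core, Pomp, which guides the beta ring, rose by 0.58 ± 0.07 in knockout and 0.65 ± 0.07 in wild-type hearts. Psmg1, which helps to build the alpha ring, fell in knockout hearts (-0.53 ± 0.16, limma adjusted p = 0.0189) and had a change of -0.42 ± 0.16 in wild-type hearts (0.0716). Psmg4 rose in wild-type hearts (0.31 ± 0.10), and Psmg2 and Psmg3 did not pass.

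Of 8 measured proteins that associate with the cap, 1 rose in knockout hearts, and 2 rose and 1 fell in wild-type hearts. Of all genes tested, 11.4% were called higher in knockout hearts, and 9.28% higher and 11.6% lower in wild-type hearts. Rad23b, a shuttle that carries ubiquitinated proteins to the cap, rose by 0.46 ± 0.09 in knockout and 0.48 ± 0.09 in wild-type hearts. The deubiquitinase Uchl5 rose by 0.33 ± 0.10 in wild-type hearts, and the small cap subunit Sem1 fell there (-0.22 ± 0.07). Of 8 listed ubiquitin and unfoldase genes, 3 were measured. Nploc4, a cofactor of the unfoldase Vcp, rose by 0.61 ± 0.13 in knockout and 0.67 ± 0.13 in wild-type hearts. Its partner Ufd1 rose by 0.36 ± 0.12 in knockout hearts, and Vcp itself did not pass. Among 3 measured regulators of proteasome genes, the transcripts of the transcription factors Nfe2l1 and Nfe2l2 did not pass, with mean changes of -0.15 ± 0.10 and 0.00 ± 0.13, and Ngly1, the enzyme that removes glycans from Nfe2l1, rose by 0.39 ± 0.12 in wild-type hearts.

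The promoter windows were searched on both strands for TGACNNNGC, for CCAAT, the box bound by the factor NF-Y, and for GAAANNGAA, the core of the interferon-stimulated response element. TGACNNNGC was found in 16.1% of the member windows and in 12.4% of 32851 windows of the same length. Its holders were Psmb5, Psmb6, Psmc6, Psmd9 and Psmd12, of which the last 3 rose. CCAAT was found in 38.7% of member windows and 37.4% of all windows. GAAANNGAA was found in 16.1% and 8.6%, and its holders Psmb3, Psmb4, Psmc2, Psmd4 and Psmd9 all rose by the mean effect, as did 24 of the 29 members with a window. No match to one motif overlapped a match to another, and a match describes letters in the window only.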

How the data were processed

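Affymetrix arrays measured total RNA of ventricular myocardium. The authors deposited log2 probe set values made with RMA (robust multi-array average: background correction, quantile normalization and probe summary), per the submitters' processing notes, with the version not given in the sources used here. Quantile normalization gives every array nearly the same distribution, so changes are relative to the other genes of an array.

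From 45101 probe sets, 64 control sets, 932 with several symbols and all those without a symbol were left out. The remaining 34945 had 1 symbol, and the brightest set per gene was kept (18193 genes). The model of limma 3.58.1 (R 4.3.3) held a mean for each group over the 16 arrays (intensity trend, 12 residual degrees of freedom, two-sided), with Benjamini-Hochberg adjustment over all genes. The further probe sets of members were tested by the same model in a separate fit over all single-symbol probe sets. Errors of changes are limma standard errors, with 95% intervals. Within-array ratios are descriptions. The script that fits the model was tested on simulated data.

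The members and lists were chosen with earlier results of these data known. Named with every array's value were the catalytic subunits, the 2 called genes of each class with the largest mean LPS change, and the 3 with the smallest interaction p. Psmb8, which is no member, falls outside that rule and was chosen after its values were seen. The other genes named in part belong to the listed pathways. The alternatives were array weights, repeated or median normalization, other probe set rules, a filter on dim genes, a stricter threshold, a replicate block, and each array left out. The transcript of the targeted receptor is not reported here.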

Additional observations from a re-analysis of the deposited data

Results flagged for a closer look

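In 10 of the 156 sets of 4 arrays examined (144 of members and 12 of the inducible subunits), 1 array stood apart from the other 3 by Dixon's 95% criterion, which chance meets in about 1 of 20 groups. Knockout LPS array 2 was low for Psma1 (9.74, the others 10.40 to 10.45), Psma4 (10.52, the others 10.87 to 10.94), Psmd14 (10.45, the others 10.79 to 10.84) and Psmd5 (6.76, the others 7.21 to 7.26). Wild-type LPS array 4 was low for Psma4 (10.09, the others 10.79 to 10.90) and Psma5 (10.95, the others 11.49 to 11.60), and high for Psmd13 (9.61, the others 9.09 to 9.16). Knockout LPS array 4 was high for Psmb6 (10.65, the others 10.51 to 10.53), and knockout LPS array 1 was high for Psmd9 (6.64, the others 6.51 to 6.53). Knockout saline array 3 was high for Psma7 (10.53, the others 10.36 to 10.38).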

How the results depend on the processing

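Every count of called members stayed within 1.5 times its value in the 27 alternative settings. Leaving out 1 array gave 22 to 26 members in knockout hearts, 21 to 25 in wild-type hearts and 26 to 29 by the mean effect, and 0 in every comparison of the genotypes and in the interaction. Of 48 called changes of single members, 32 kept their call in all settings and 0 changed direction. Over all settings 60 calls were lost and 14 gained. Psmb3, Psmd1 and Psmc5 in wild-type hearts and Psmd12 in knockout hearts lost theirs most often, and averaging all probe sets of a gene gave 19 in knockout hearts and 22 in wild-type hearts. The share of all genes called was not counted in the alternative settings. Whether the changes in these counts are particular to the members was therefore not tested. The largest shift of the median change of all genes under any setting was 0.0505, in knockout hearts with median centring. No clear pairing by replicate number was seen: 3 of 24 same-number pairs correlated over 0.1 (r from -0.27 to 0.33). The labels do not say whether same-number samples were handled together. With the number as a block the counts were 24, 22 and 26. Uncalled changes near 0 turned sign, and the cause was not tested: Psmb11 in wild-type hearts (0.01 with array weights, 0.03 with median centring, -0.06 to 0.08 with 1 array left out), Psmb5 in wild-type hearts (0.03 without wild-type saline arrays 1 and 4, -0.11 to 0.04 with 1 array left out), Psmb7 in knockout hearts (0.00 with array weights, -0.16 to 0.11 with 1 array left out), and Psmd5 with 1 array left out (-0.08 to 0.13 in knockout and -0.03 to 0.09 in wild-type hearts).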
